A study of Mus musculus with 9 samples.

Results

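The imprinted domain around Snrpn on mouse chromosome 7 was examined for DNA that stays with the insoluble nuclear material after high-salt extraction. The regions were all StyI restriction fragments of chromosome 7 whose midpoint lies between 66100000 and 69600000 in build mm9, a stretch of 3.5 Mb that holds Snrpn, Ube3a, Ndn and Magel2. The rule found 4016 such fragments of 3053721 in the genome and used no measured value. All libraries came from the embryonic stem cell line E14Tg2a (mouse, 129P2 background), grown on gelatin with LIF and no other treatment. In HRS-seq, nuclei are extracted at high salt and digested with StyI, and the DNA that remains insoluble (high-salt recovered sequences, HRS) is separated from the DNA that is released (Loop). The groups were 3 HRS libraries (replicates 1, 2 and 3), 3 Loop libraries (replicates 1, 2 and 3) and 3 libraries of unfractionated genomic DNA (input, titled D0, D12 and D21), all from this single line. HRS and Loop titles also carry a tag, ES1, ES2 or ES3, which is the same in both fractions for the same replicate number. The titles do not say what these tags mark. The labels do not explain the 3 input titles, nor do they tell whether the replicates are separate cultures. A p-value here reflects the spread among these libraries, which may be technical.

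Genomic imprinting restricts expression of a gene to the copy inherited from a single parent. In this domain Snrpn (a core protein of the spliceosome, whose transcript starts at the imprinting centre), the small nucleolar RNA genes downstream of it, and Ndn and Magel2 (members of the MAGE protein family) are expressed from the paternal copy. Ube3a, a ubiquitin ligase, is expressed from both copies in most cells and from the maternal copy in neurons. Loss of the paternal genes in humans causes Prader-Willi syndrome and loss of maternal UBE3A causes Angelman syndrome. The counts do not tell the parental copies apart, so each value below is a sum over both.

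The assay sees DNA through StyI, which cuts at CCNNGG where each of the inner bases is A or T, searched here on both strands. RefSeq start windows of 300 bases (250 before and 50 after the start, build GRCm38.p6) were matched for 4 of the 4 named genes, and 34.5% of the 32851 windows of that length in the genome hold at least 1 StyI site. The Ube3a window (chr7:59228500-59228799, plus strand) holds 1 site, whose first base is at position 69 counted from 1 at the 5′ end. The Snrpn window (chr7:60005150-60005449, minus strand), Ndn and Magel2 hold none. The windows of Ube3a, Snrpn, Ndn and Magel2 hold 29, 7, 11 and 10 CpG dinucleotides, against a median of 7 over all windows. The Ube3a and Snrpn windows are printed because they are the starts of the genes on either side of the snoRNA genes, with the StyI site in capitals. Snrpn has 4 start windows in RefSeq, and the printed start is shared with Snurf. Their coordinates belong to another build than the counts and cannot be set beside the mm9 positions below.
Ube3a: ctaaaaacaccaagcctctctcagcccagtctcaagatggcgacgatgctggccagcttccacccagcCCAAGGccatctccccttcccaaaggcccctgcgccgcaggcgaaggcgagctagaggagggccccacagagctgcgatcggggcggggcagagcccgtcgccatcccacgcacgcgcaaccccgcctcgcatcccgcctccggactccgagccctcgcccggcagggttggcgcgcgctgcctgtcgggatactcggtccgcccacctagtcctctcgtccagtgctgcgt
Snrpn: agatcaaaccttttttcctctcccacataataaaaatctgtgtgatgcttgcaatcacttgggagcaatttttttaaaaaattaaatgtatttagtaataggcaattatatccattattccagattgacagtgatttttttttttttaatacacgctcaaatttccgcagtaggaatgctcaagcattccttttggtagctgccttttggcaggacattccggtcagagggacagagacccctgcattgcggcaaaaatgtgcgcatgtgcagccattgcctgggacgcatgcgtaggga

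No mm9 annotation was used here, so genes were not assigned to windows, except that the rule places Snrpn near 67.13 Mb. The RefSeq gene order (GRCm38.p6) runs from Atp10a, a phospholipid flippase gene, to Ube3a, then 206 snoRNA genes, Snrpn with Snurf, 13 microRNA genes, Ndn, Magel2, Mkrn3 and Peg12. Ube3a is the 1 protein-coding gene between Atp10a and the first snoRNA gene.

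The domain was thinly counted. The 9 libraries held 39051731 to 62928317 counts each, of which 17066 to 31779 fell in the domain. Of the 4016 fragments, 1964 (48.9%) had no count in any library, against 19.7% in the 3.5 Mb before the domain, 14.5% in the 3.5 Mb after it and 16.4% in the genome. Outside a block of dense StyI sites that is described further on, 34.9% of 2990 fragments had no count. The median fragment of the domain was 507.5 bp long, against 539 bp in the genome. The fractions also weighted fragment length differently. Fragments of up to 200 bp held 25.3% ± 2.04 of the domain's counts in HRS, 46.8% ± 4.92 in Loop, against 23.1% ± 0.933 in input (SD, n = 3 each), and the lowest Loop library (41.7%) lay above the highest HRS library (27.6%). Ratios are therefore given both as fitted and with a length correction, in which each window is set against the count that its own fragment lengths predict for that library.

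**Figure D1:**
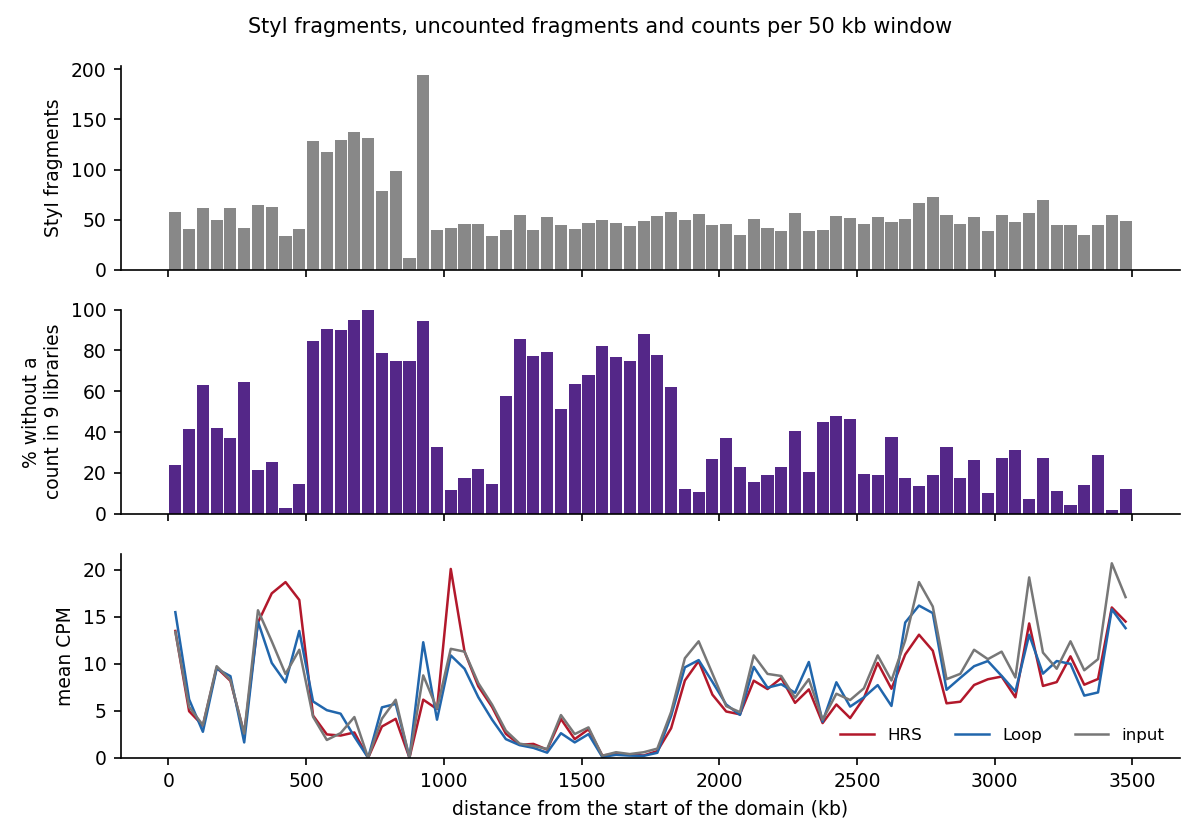
StyI fragments per 50 kb window (top), percentage of them without a count in any of the 9 libraries (middle) and mean counts per 1000000 counts of the library (CPM) of the HRS, Loop and input libraries (bottom, n = 3 each), against distance from the start of the domain in kb. Fragments crowd between 500 and 950 kb, except in the window at 850 kb, and most of them have no count. The HRS line stands above the others near 400 kb and at 1000 kb.

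Across the 3.5 Mb as a whole the fractions held similar shares of all counts. The domain took 0.0492%, 0.0514% and 0.0437% of the counts in HRS replicates 1 to 3, and 0.0492%, 0.0495% and 0.0468% in Loop replicates 1 to 3. It took 0.0480%, 0.0551% and 0.0576% in the D0, D12 and D21 inputs, so that D0 lay among the fractions and D12 and D21 lay above every fraction library. The log2 ratios were -0.02 for HRS over Loop, -0.15 for HRS over input and -0.14 for Loop over input, with exact two-sided permutation p-values of 0.8, 0.3 and 0.3 (n = 3 each, adjusted over the 3 comparisons 0.8, 0.45 and 0.45). Without HRS replicate 3 the first of these was 0.05. Against the mean of the 3.5 Mb flanks on either side, the domain's counts stood at 0.390 ± 0.012 in HRS, 0.353 ± 0.00685 in Loop, against 0.391 ± 0.0328 in input (SD, n = 3 each). Every HRS library (0.378 to 0.402) lay above every Loop library (0.345 to 0.358), a log2 ratio of 0.14 with an exact p of 0.1, the smallest that 3 against 3 can give, and an adjusted p of 0.3. The flanks themselves held smaller shares in HRS than in Loop, 0.103% ± 0.00588 against 0.108% ± 0.000732 before the domain and 0.143% ± 0.00755 against 0.166% ± 0.00245 after it (SD, n = 3 each).

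In 50 kb windows the question was where within the domain DNA was kept in HRS or released. Of the 70 windows, 67 passed the filter on low counts for HRS over Loop, and edgeR's quasi-likelihood test, with Benjamini-Hochberg adjustment over all 50555 windows of the genome, put 13 of them higher in HRS and 13 lower (19.4% each). Over all windows 23.4% were called higher and 24.1% lower. The median log2 ratio was 0.06 in the domain and -0.01 over all windows. With the length correction 4 windows were higher and 8 lower, where 21.8% of all windows were called higher and 17.9% lower. The split of higher and lower calls also moved with the scaling, to 8 and 12 on library totals, and to 18 and 8 when all 9 libraries entered 1 fit. The total fell to 17 without Loop replicate 2, and the lower calls to 8 without HRS replicate 1 and to 7 without Loop replicate 1 or 2.

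Against input, HRS was higher in 4 of 68 windows (5.88%) and lower in 9 (13.2%), where 23.0% of all windows were called higher and 14.4% lower. The length correction left 4 higher and gave 13 lower, with 21.8% and 18.0% over all windows. The 9 lower calls depended on single libraries: they were 4 without HRS replicate 1, 3 without input D12, 2 without input D21 and 14 without input D0. For Loop over input, 10 of 67 windows were called higher and 18 lower, where 16.3% and 16.4% of all windows were. With the length correction 0 windows were higher and 1 lower by edgeR (8 at an unadjusted p under 0.05). Over all windows 0.0732% and 0.0158% were called, so nearly all calls were lost in the domain and in the genome alike. Whether fragment length caused the difference was not tested. Before the correction, the 10 higher calls were 5 without input D0 and 6 without Loop replicate 2. The 18 lower calls were 11 without input D12 and 10 without input D21. The Spearman correlation across windows between a window's log2 ratio and its share of input counts in fragments of up to 200 bp was -0.59 for HRS over Loop (67 windows) and 0.63 for Loop over input, and -0.12 and 0.04 after the correction. These windows share their libraries, so the correlations are descriptions.

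**Figure D2:**
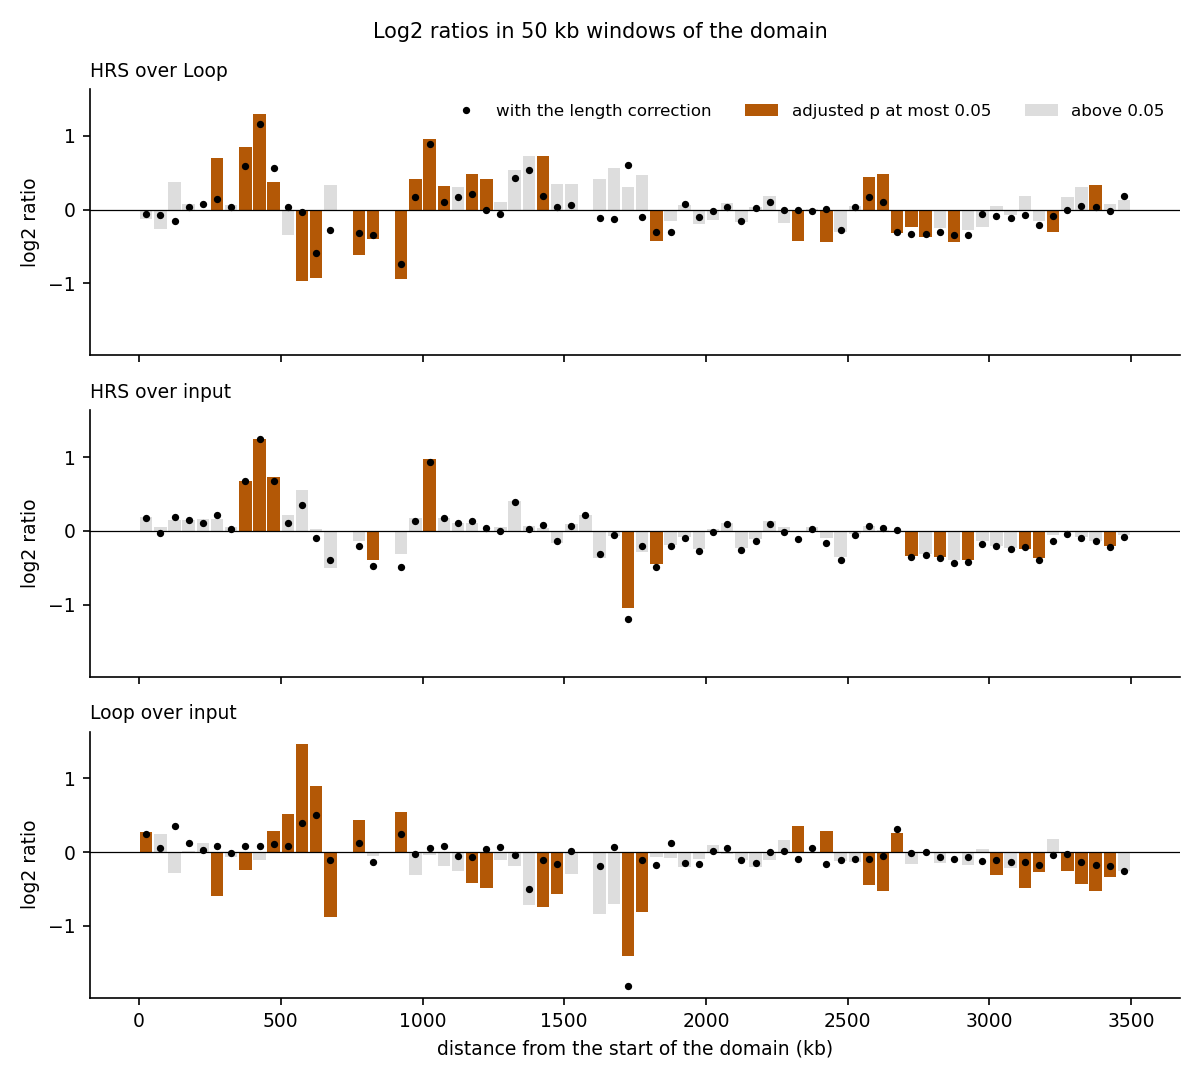
Log2 ratio of HRS over Loop (top), HRS over input (middle) and Loop over input (bottom) in each 50 kb window against distance from the start of the domain in kb. Bars are the fitted ratios, dark where the edgeR adjusted p was at most 0.05, and dots are the length-corrected ratios. Missing bars are windows that the filter removed. The windows at 350 to 500 kb and at 1000 kb stand above 0 in both HRS panels by bar and by dot.

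Of the 13 windows called higher over Loop, 4 were also called higher over input, in both comparisons with and without the length correction, and these 4 fell in 2 places. These comparisons share the HRS libraries. A block of 3 adjoining windows ran from 66450001 to 66600000, and the fourth window, from 67100001 to 67150000, holds the position that the rule gives for Snrpn. Their calls against input passed under all 14 alternatives listed for them. Their calls against Loop passed under 17 of 17 alternatives, except that the window starting at 66550001 missed an adjusted p of 0.01.

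The Snrpn window, with 42 StyI fragments, held 19.4, 21.7 and 19.1 CPM in HRS, 11.8, 10.8 and 10.1 CPM in Loop, against 11.3, 10.7 and 12.9 CPM in input. Every HRS library lay above every Loop and every input library, while Loop and input overlapped. HRS was 1.93-fold higher than Loop (log2 ratio 0.95 ± 0.08 SE, edgeR adjusted p 5.08e-06) and 1.95-fold higher than input (0.97 ± 0.09 SE, adjusted p 1.04e-05). With the length correction these were 0.89 ± 0.08 and 0.93 ± 0.09 (SE), and over the alternatives they ranged from 0.88 to 1.01 and from 0.79 to 1.01. Of all windows in the genome, 3.86% had a higher ratio over Loop and 3.35% a higher ratio over input. Loop over input was -0.04 as fitted (adjusted p 0.765) and 0.05 with the length correction (adjusted p 0.887).

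The windows beside it stood out less. The window from 67050001 to 67100000 held 5.19 ± 0.816 CPM in HRS, 4.06 ± 0.316 in Loop, against 5.23 ± 0.841 in input (SD, n = 3 each). The window from 67150001 to 67200000 held 11.3 ± 1.36 CPM in HRS, 9.48 ± 0.275 in Loop, against 11.3 ± 0.850 in input (SD, n = 3 each). Both were higher in HRS than in Loop, at log2 ratios of 0.42 ± 0.14 (SE, adjusted p 0.0257) and 0.32 ± 0.09 (SE, adjusted p 0.013). Neither call held with the length correction (0.17, adjusted p 0.271, and 0.10, adjusted p 0.299), and neither window passed against input (adjusted p 0.374 and 0.136). The first also missed the threshold without HRS replicate 1 (adjusted p 0.102), HRS replicate 2 (0.0788) or Loop replicate 2 (0.107), and it read -0.02 on fragments over 200 bp alone. The second missed it without HRS replicate 1 (adjusted p 0.0561).

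The other 9 windows called higher over Loop lay beside the Snrpn window or scattered over the domain, and none of them was called higher over input or with the length correction. The window from 67500001 to 67550000 held 4.75, 4.90 and 2.74 CPM in HRS, 3.04, 2.45 and 2.38 CPM in Loop and 5.03, 4.26 and 4.36 CPM in input. The HRS and Loop libraries overlapped, with HRS replicate 3 below Loop replicate 1, and so did HRS and input. Its log2 ratio over Loop was 0.72 ± 0.19 (SE, edgeR adjusted p 0.00845), passed under 14 of 17 alternatives, and was 0.19 with the length correction (adjusted p 0.394). The window from 67250001 to 67300000 had a ratio over Loop of 0.48 ± 0.15 (SE, adjusted p 0.0165), 0.21 with the correction (adjusted p 0.15), and lost its call without HRS replicate 1 (adjusted p 0.0546) or Loop replicate 3 (0.0543). The adjoining windows at 68650001 and 68700001 had ratios of 0.44 and 0.48 over Loop, and 0.17 and 0.10 with the correction. Apart from the neighbours of the Snrpn window, the remaining calls, at 66350001, 67300001 and 69450001, had ratios over Loop of 0.70, 0.42 and 0.33.

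Of the 3 adjoining windows, the middle, from 66500001 to 66550000, held 18.5, 17.8 and 19.9 CPM in HRS, 7.95, 8.66 and 7.47 CPM in Loop, against 8.14, 8.82 and 9.82 CPM in input. The lowest HRS library was above the highest library of either other group. This was the highest ratio of any 50 kb window called in the domain, 2.44-fold over Loop (log2 ratio 1.29 ± 0.10 SE, adjusted p 3.01e-06) and 2.38-fold over input (1.25 ± 0.10 SE, adjusted p 6.98e-06). Of all windows, 1.33% had a higher ratio over Loop and 1.08% over input. Only 2.94% of its 34 fragments lacked a count.

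The window before it, from 66450001 to 66500000, held 16.7, 17.2 and 18.4 CPM in HRS, 10.4, 10.0 and 9.98 CPM in Loop, against 11.8, 12.6 and 12.9 CPM in input. Its log2 ratios were 0.85 ± 0.09 over Loop (SE, adjusted p 2.46e-05) and 0.67 ± 0.09 over input (SE, adjusted p 0.000161), and 0.59 and 0.68 with the length correction. The window after it, from 66550001 to 66600000, held 16.4, 15.4 and 18.6 CPM in HRS, 13.4, 13.0 and 14.0 CPM in Loop, against 10.4, 11.1 and 12.9 CPM in input. Its ratio over Loop was the smallest of the 4, at 0.38 ± 0.11 (SE, adjusted p 0.0106), and was 0.56 with the length correction. Its ratio over input was 0.73 ± 0.12 (SE, adjusted p 0.000504), and 0.67 with the correction. In all 3 windows the HRS libraries did not overlap Loop or input.

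**Figure D3:**
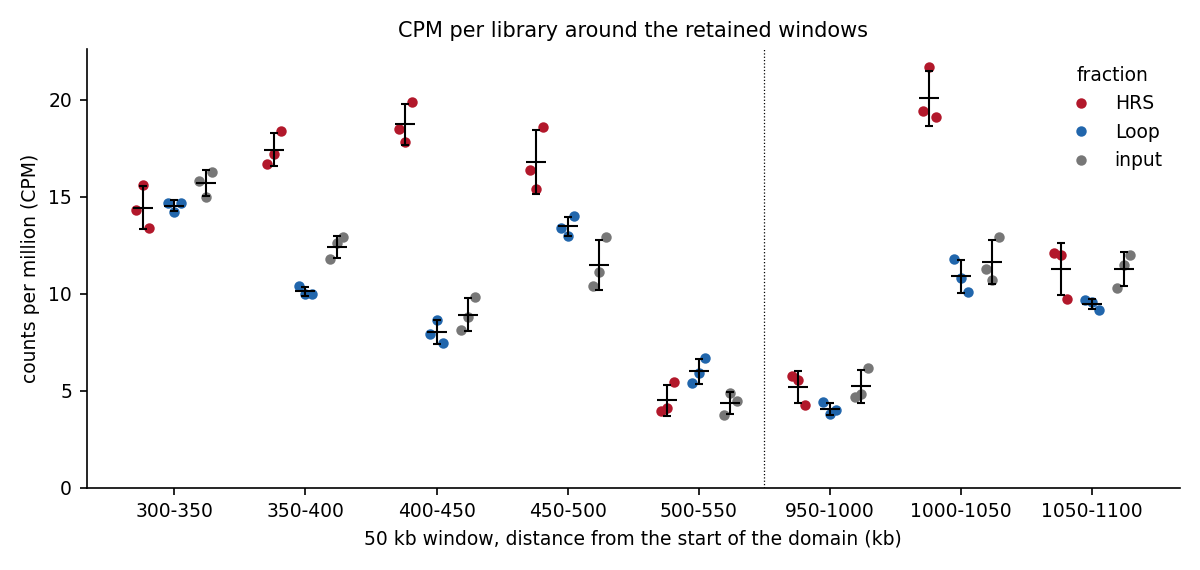
CPM of every library in the 4 windows higher in HRS and in the windows beside them, by distance from the start of the domain in kb. Points are libraries (HRS, Loop and input from left to right), dashes with bars are the mean and SD of 3, and the dotted line marks a break in distance. In the windows at 350 to 500 kb and at 1000 kb the HRS points lie above all others, and in the windows beside them the groups overlap or lie close together.

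At 10 kb the limits of both places could be followed. Of 268 windows of 10 kb tested, 39 were higher in HRS than in Loop and 44 lower (17.8% and 20.4% over all windows), and 18 and 18 with the length correction (14.8% and 8.57%). The longest run of adjoining higher windows covered 110 kb, from 66470001 to 66580000 (11 windows), and the next covered 70 kb, from 67100001 to 67170000 (7 windows). With the length correction the runs were 66470001 to 66590000 (12 windows) and 67110001 to 67160000 (5 windows), which held 17 of the 18 higher calls. Against input 18 of 275 windows were higher in HRS and 18 lower (15.2% and 9.16% over all windows), and 20 and 19 with the correction (15.5% and 9.72%). The runs there were 66470001 to 66600000 (13 windows) and 67120001 to 67160000 (4 windows), and 12 and 6 windows long with the correction. Loop was higher than input in 37 of 273 windows and lower in 63 (21.5% and 18.0% over all windows), and in 3 and 1 with the correction (0.263% and 0.0823%). The first run began at the same 10 kb window in each of these HRS fits, over Loop and over input. The window just before it, at 66460001, held 1.24 ± 0.147 CPM in HRS, 1.33 ± 0.233 in Loop, against 1.02 ± 0.077 in input. The first window inside, at 66470001, held 5.79 ± 0.746 CPM in HRS, 3.50 ± 0.415 in Loop, against 4.60 ± 0.0141 in input (SD, n = 3 each).

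Within the 110 kb stretch the ratio was uneven. It was highest near the far end, in the window at 66570001 with 1.97 ± 0.481 CPM in HRS, 0.351 ± 0.0815 in Loop, against 0.848 ± 0.0743 in input (SD, n = 3 each), a log2 ratio over Loop of 2.46 (edgeR adjusted p 5.51e-06) that 0.117% of all 10 kb windows exceeded. Its lowest ratio, 0.70 (adjusted p 0.0011), was in its first window. In the 70 kb stretch the window at 67130001, which holds the Snrpn position, had 3.08 ± 0.540 CPM in HRS, 1.13 ± 0.0643 in Loop, against 1.63 ± 0.0931 in input (SD, n = 3 each), with a ratio of 1.42 over Loop (adjusted p 1.71e-05) and 1.04 over input (adjusted p 0.000162). The next, at 67140001, held the most counts, with 8.96 ± 1.03 CPM in HRS, 5.54 ± 0.0929 in Loop, against 5.55 ± 0.715 in input (SD, n = 3 each). Its ratios were 0.67 (adjusted p 0.000829) and 0.83 (adjusted p 0.000262).

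**Figure D4:**
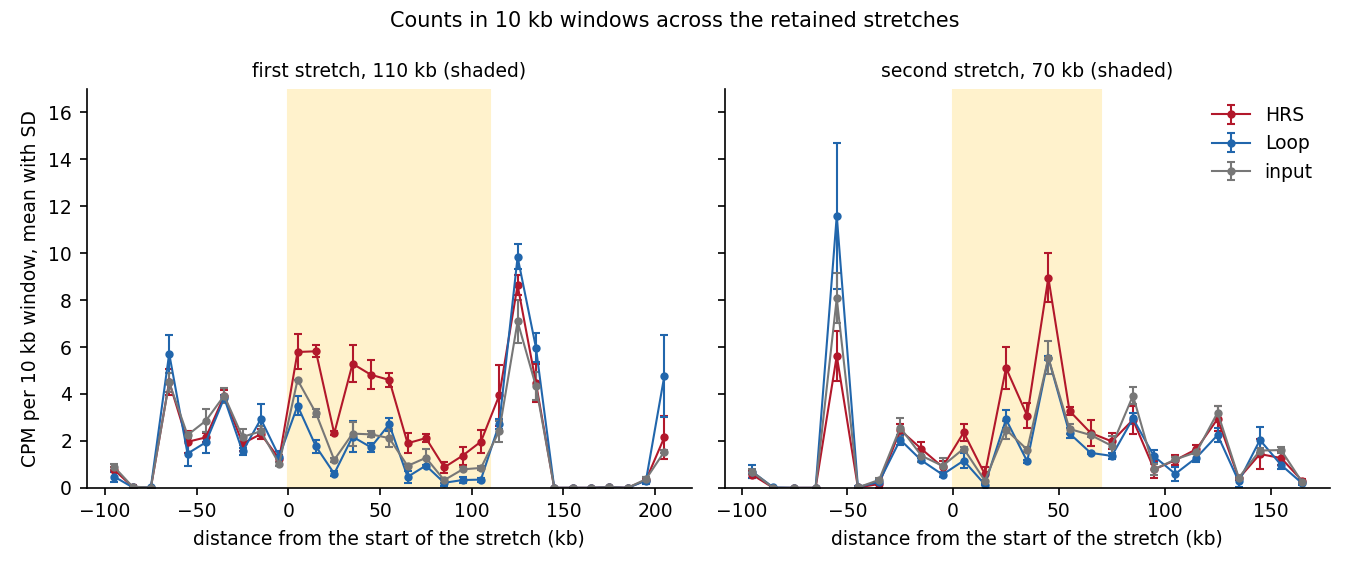
Mean CPM per 10 kb window with SD (n = 3 each) for HRS, Loop and input, against distance in kb from the start of the 110 kb stretch (left) and of the 70 kb stretch (right), both shaded. Inside the shading the HRS line lies above Loop and input, and outside it no line is highest throughout.

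Summed over the 110 kb stretch, the libraries held 35.9, 35.4 and 39.4 CPM in HRS, 15.6, 14.7 and 14.0 CPM in Loop, against 18.9, 19.8 and 20.9 CPM in input. The 70 kb stretch held 25.0, 27.8 and 24.4 CPM in HRS, 15.6, 14.8 and 13.7 CPM in Loop, against 15.8, 15.7 and 17.7 CPM in input. Over all fragment lengths the rest of the domain ran the other way, with 418 ± 40.3 CPM in HRS, 456 ± 13.4 in Loop, against 499 ± 47.9 in input (SD, n = 3 each). HRS stood at 2.49 times Loop in the first stretch, 1.75 times in the second and 0.918 times in the rest, and at 1.86, 1.57 and 0.838 times input. The stretches were chosen on HRS over Loop, so these ratios describe them and are no test. CPM is scaled by library totals, and on that scale the genome itself lay below 0. The median log2 ratio of all 50 kb windows was then -0.07 over Loop and -0.17 over input. The rest of the domain stood at -0.13 and -0.25, so part of its lower HRS values is shared with the genome.

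Fragment length changed the ratio over Loop but not the order of HRS and input. On fragments over 200 bp the first stretch held 31.9 ± 1.48 CPM in HRS, 10.9 ± 1.19 in Loop, against 17.9 ± 0.924 in input (SD, n = 3 each). On fragments of up to 200 bp it held 4.92 ± 0.752, 3.94 ± 0.405 and 1.99 ± 0.178 CPM in HRS, Loop and input (SD, n = 3 each). HRS over Loop was thus 2.94 on long and 1.25 on short fragments, and HRS over input 1.79 and 2.48. In the second stretch HRS over Loop was 2.36 on long and 0.979 on short fragments, and HRS over input 1.51 and 1.76. In the rest of the domain HRS over Loop was 1.29 on long and 0.507 on short fragments, and HRS over input 0.81 and 0.928. Against Loop, the rest thus ran the other way on short fragments only. The genome had the same split by length. For single tested fragments, the median log2 ratio over Loop was 0.31 on long and -1.06 on short fragments of the genome. In the rest of the domain it was 0.21 and -1.16, in the first stretch 1.62 and 0.17, and in the second 1.08 and -0.06.

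At the level of single fragments, of the 4016 fragments, 960 had enough counts to test, and 72 were higher in HRS than in Loop and 159 lower, where 9.02% and 15.7% of the 1744841 fragments tested in the genome were. Without HRS replicate 1 the higher calls were 45, and without HRS replicate 2 they were 47. With the replicate number as a block, 78 were higher and 165 lower (9.76% and 16.5% of all). The first stretch held 36 of the 72 higher fragments among 53 tested, with 0 lower (0 at an unadjusted p under 0.05), and the second held 12 among 40 tested, with 1 lower. In the second stretch the higher calls were 7 without Loop replicate 3 and 8 without HRS replicate 2, and without either the lower calls were 0 (1 at an unadjusted p under 0.05). These fragments lie in stretches chosen on the same contrast, so the counts are descriptions. Among 263 tested fragments of up to 200 bp, 0 were higher (2 at an unadjusted p under 0.05) and 146 lower by edgeR, where 0.601% and 55.1% of all tested fragments of that length were. Among 697 longer fragments 72 were higher and 13 lower (7 without Loop replicate 3), where 12.1% and 1.42% of all were. With the length correction 33 were higher and 22 lower (4.88% and 1.64% of all), of which the first stretch held 22 higher, the second 7 and the rest of the domain 4.

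The 5 fragments with the highest ratios all lay in the first stretch, between 66535569 and 66578775. A fragment of 2158 bp from 66535569 to 66537727 had 34, 47 and 24 counts in HRS, 7, 6 and 4 in Loop, against 10, 21 and 14 in input, a log2 ratio over Loop of 2.75 ± 0.51 (SE, edgeR adjusted p 3.67e-06) and 2.18 with the length correction. Every HRS count exceeded every Loop and input count. A fragment of 820 bp from 66574109 to 66574929 had 41, 25 and 25 counts in HRS, 10, 5 and 4 in Loop, against 16, 9 and 15 in input (log2 ratio 2.41 ± 0.51 SE, adjusted p 5.94e-05). The highest ratio, 2.83 ± 0.68 (SE, adjusted p 0.000407), belonged to a fragment of 720 bp from 66578055 to 66578775 with 13, 13 and 26 counts in HRS, 2, 3 and 3 in Loop, against 14, 18 and 15 in input. In CPM this fragment held 0.252, 0.248 and 0.666 in HRS, against 0.225, 0.318 and 0.272 in input, so that HRS and input overlapped.

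The 5 fragments with the lowest ratios were 31 to 77 bp long and scattered over the domain. The lowest, 31 bp from 67192776 to 67192807, had 1, 3 and 0 counts in HRS, 21, 29 and 21 in Loop, against 3, 6 and 7 in input. Its log2 ratio was -3.88 ± 0.75 (SE, adjusted p 7.88e-06) as fitted and -2.32 (adjusted p 0.0549) with the length correction. A fragment of 77 bp from 68918987 to 68919064 kept its call with the correction (-1.94, adjusted p 0.018). It had 3, 3 and 5 counts in HRS, 44, 34 and 55 in Loop, against 9, 6 and 17 in input, and the Loop counts exceeded all others.

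**Figure D5:**
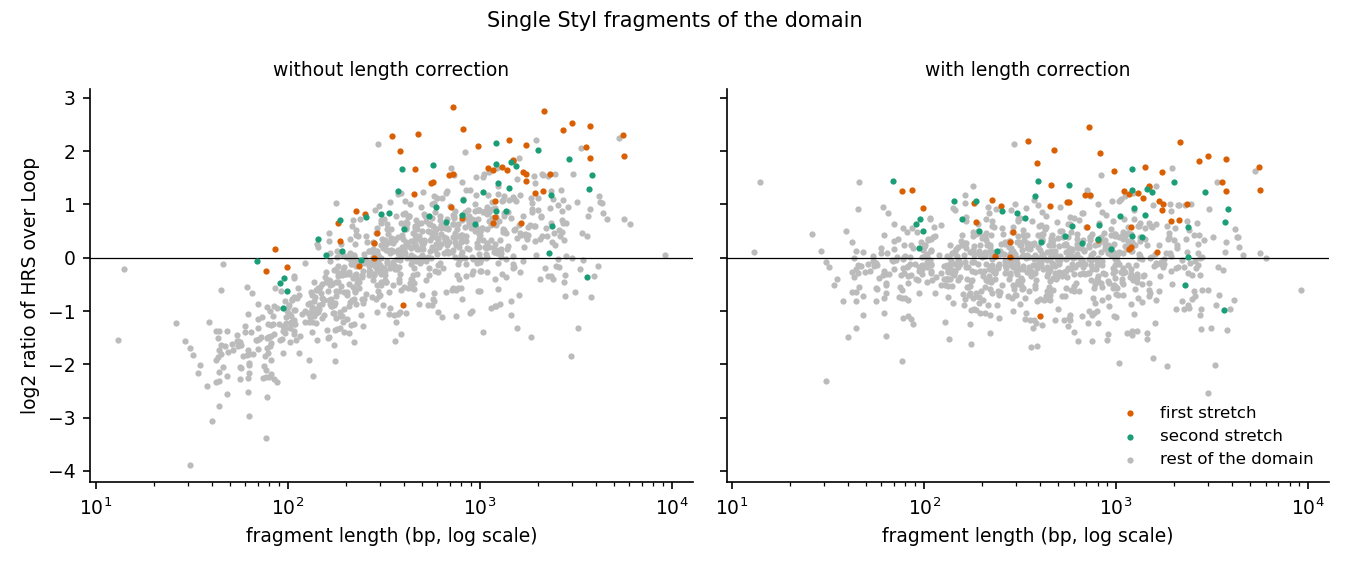
Log2 ratio of HRS over Loop for the 960 tested fragments of the domain against fragment length in bp on a log axis, as fitted (left) and with the length correction (right). Each point is a fragment, coloured by stretch. As fitted the ratio climbs with length, with the correction it does not, and the points of the first and second stretch lie mostly above 0 in both.

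Between the 2 retained places lies the block from 66600001 to 67050000, in which StyI sites are mostly dense and in part repeat in a fixed order. The window from 66950001 to 67000000 is an exception, with 12 fragments, and a fragment of 50442 bp covers most of it. It holds 1026 fragments, 25.5% of the domain's, and 89.6% of them had no count in any library. In its first 300 kb, which hold 721 fragments, the run of lengths 78, 140, 918, 160 and 576 bp occurred 22 times, a unit of 1872 bp. Fragments of these 5 lengths made up 54.5% of that stretch, against 0.303% of the rest of the domain and 0.403% of the genome. The window from 67000001 to 67050000 holds 194 fragments, of which 11 had a count, and there the run of 100, 197 and 179 bp occurred 12 times. In the RefSeq order the snoRNA genes, which form tandem copies (17 are Snord116), lie between Ube3a and Snrpn, but they were not placed on this block here. How the authors treated tags that match several places is not given in the sources used here, so a count on such a fragment may belong to other copies of the unit.

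Where the block had counts, HRS was mostly lower than Loop. Of its 7 tested windows, 6 had a ratio below 0 and that from 66750001 to 66800000 had 0.33 (adjusted p 0.26). Of the 7, edgeR called 5 lower in HRS, with log2 ratios from -0.97 to -0.40, and 0 higher (0 at an unadjusted p under 0.05, 0 by DESeq2). The 5 are 71.4% of the tested windows, where 24.1% of all windows were called lower and 23.4% higher. With the length correction 3 of the 7 were lower (42.9%, against 17.9% over all windows). The window from 66700001 to 66750000 held 2.68, 2.02 and 2.41 CPM in HRS, 4.15, 3.83 and 6.11 CPM in Loop, against 2.30, 2.74 and 2.86 CPM in input. Its ratio over Loop was -0.93 ± 0.21 (SE, adjusted p 0.00349), -0.59 with the length correction (adjusted p 0.0123), and it passed under 17 of 17 alternatives. The window from 67000001 to 67050000 held 5.34, 5.87 and 7.37 CPM in HRS, 10.8, 10.0 and 16.2 CPM in Loop, against 7.70, 8.73 and 9.87 CPM in input, with a ratio of -0.94 ± 0.20 (SE, adjusted p 0.00233) and -0.74 with the correction (adjusted p 0.0012). This call missed the threshold under 1 of 17 alternatives, on fragments over 200 bp alone (-0.73, adjusted p 0.125). In both windows every HRS library lay below every Loop library.

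Few fragments carried these windows. A fragment of 176 bp from 67047160 to 67047336 gave 63.1% of the counts of the second, with 164, 185 and 183 counts in HRS, 455, 411 and 662 in Loop, against 270, 276 and 327 in input, and its own ratio was -1.35 ± 0.31 (SE, adjusted p 0.000217) and -0.98 with the correction (adjusted p 0.0013). In the windows starting at 66650001, 66700001 and 66850001 the leading fragments were 78, 140 and 160 bp long, which are lengths of the repeated unit, and gave 62.9%, 58.8% and 34.5% of the counts. The call at 66650001 (-0.97 ± 0.32 SE, adjusted p 0.027) was not held by the length correction (-0.03, adjusted p 0.954), by DESeq2 (adjusted p 0.114), or without HRS replicate 1 (0.0516), HRS replicate 2 (0.0962) or Loop replicate 3 (0.128). At 66850001 the ratio of -0.62 ± 0.15 (SE, adjusted p 0.00474) became -0.32 with the correction (adjusted p 0.0875). The window from 66900001 to 66950000 was also lower than input, with 4.11, 4.02 and 4.33 CPM in HRS, 5.71, 5.02 and 6.49 CPM in Loop and 5.34, 6.26 and 6.96 CPM in input. Its ratio over input was -0.40 ± 0.14 (SE, adjusted p 0.0374), -0.48 with the correction (adjusted p 0.00873), and missed the threshold without HRS replicate 1 (adjusted p 0.113), HRS replicate 2 (0.114), input D12 (0.0751) or input D21 (0.108). The Loop libraries were higher than input in 4 adjoining windows from 66550001 to 66750000, with log2 ratios of 0.29, 0.52, 1.47 and 0.89, and in the window from 67000001 to 67050000 with 0.55, and were lower at 66750001 with -0.88. None of these was called with the length correction.

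The 50 kb window from 66800001 to 66850000 had 131 fragments and 0 counts in all 9 libraries. A count of 0 allows up to 3 counts per library, or 0.0477 to 0.0768 CPM, counting error only. Because the inputs of unfractionated DNA also held 0, this limit concerns counted tags and sets no bound on the DNA present. The longest fragment of the domain, 50442 bp from 66951791 to 67002233 in the same block, also had 0 counts.

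Beyond Snrpn, the 650 kb from 67300001 to 67950000 were nearly empty of counts without being dense in StyI sites. Of 623 fragments with a median length of 741 bp, 73.0% had no count, and a 50 kb window held on average 1.58 ± 0.228 CPM in HRS, 1.35 ± 0.0575 in Loop, against 1.89 ± 0.0782 in input (SD, n = 3 each). In the 250 kb from 67650001 to 67900000 these were 0.390 ± 0.0161, 0.281 ± 0.00526 and 0.559 ± 0.0523 CPM in HRS, Loop and input (SD, n = 3 each). The window from 67800001 to 67850000 was lower in both fractions than in input, with 16, 11 and 9 counts in HRS, 11, 15 and 13 in Loop, against 26, 43 and 33 in input. Only 6 of its 49 fragments had a count, and a single fragment of 160 bp gave 59.3% of the window's counts. The log2 ratios were -1.05 ± 0.34 for HRS (SE, adjusted p 0.0266) and -1.41 ± 0.34 for Loop (SE, adjusted p 0.00509), and -1.20 (adjusted p 0.0114) and -1.81 (adjusted p 0.0452) with the length correction. The HRS call was not held without HRS replicate 2 (adjusted p 0.0873), input D12 (0.12) or input D21 (0.0536), while the Loop call passed under 13 of 13 alternatives. It was the 1 window that the length correction left called for Loop over input. The window after it, at 67850001, was lower in Loop than in input at -0.81 ± 0.25 (SE, adjusted p 0.0191), and -0.11 with the correction. The window from 67900001 to 67950000 held 3.65, 3.30 and 2.51 CPM in HRS, 4.31, 4.99 and 4.07 CPM in Loop and 4.41, 4.86 and 5.38 CPM in input, and every HRS library lay below every other. Its ratio over input was -0.45 ± 0.14 (SE, adjusted p 0.0242) and -0.49 with the correction (adjusted p 0.0118), and the call was lost without HRS replicate 2 (adjusted p 0.0537), input D12 (0.0543) or input D21 (0.0774).

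The last 1650 kb, from 67950001 to 69600000, were counted like ordinary sequence, with 22.6% of 1641 fragments lacking a count, and no window there was called higher in HRS than in input. A 50 kb window held on average 8.34 ± 1.04 CPM in HRS, 9.11 ± 0.503 in Loop, against 10.5 ± 1.17 in input (SD, n = 3 each). Of 33 windows, 25 had a ratio of HRS over input below 0, and edgeR called 6 lower and 0 higher (0 higher at an unadjusted p under 0.05). DESeq2 called 10 lower and 0 higher. The 6 are 18.2% of the section, against 14.4% over all windows. With the length correction 27 were below 0, 9 called lower (27.3%, against 18.0%) and 0 higher (0 higher at an unadjusted p under 0.05). Since the libraries are shared, neighbouring windows are not independent. Against Loop, 3 windows were called higher and 7 lower (9.09% and 21.2%, against 23.4% and 24.1% over all windows), and 0 and 5 with the correction (0 higher at an unadjusted p under 0.05).

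The longest run of corrected lower calls covered the 250 kb from 68800001 to 69050000, where 5 adjoining windows were lower in HRS than in input. With the correction, 4 of them were also lower than in Loop, all but 68850001 (adjusted p 0.0565), as was the window at 67950001 outside the run (-0.31, adjusted p 0.0413). Without the correction the longest run lower than Loop was 68750001 to 68900000 (3 windows), with ratios of -0.32, -0.24 and -0.37. The window from 69000001 to 69050000 held 8.62, 8.62 and 6.02 CPM in HRS, 10.2, 9.79 and 9.30 CPM in Loop, against 9.97, 11.8 and 12.6 CPM in input. Each HRS library lay below each library of the other groups. Its corrected log2 ratios were -0.34 ± 0.11 over Loop (SE, adjusted p 0.03) and -0.42 ± 0.12 over input (SE, adjusted p 0.0115), and -0.27 (adjusted p 0.0753) and -0.39 (adjusted p 0.0215) without the correction. The window from 68950001 to 69000000 was lower in HRS than in Loop at -0.44 ± 0.16 (SE, adjusted p 0.0409) and -0.34 with the correction (adjusted p 0.0499). That call was lost without HRS replicate 1 (adjusted p 0.127), HRS replicate 3 (0.0682), Loop replicate 1 (0.145) or Loop replicate 2 (0.139). HRS replicate 3 held the lowest CPM of all 9 libraries in both windows. Elsewhere in this section, the window from 68500001 to 68550000 had a ratio over Loop of -0.44 ± 0.12 (SE, adjusted p 0.0126), but 0.01 with the correction, and lost its call without Loop replicate 2 (adjusted p 0.0735). The adjoining windows at 69200001 and 69250001 were lower in HRS than in input, at -0.24 and -0.37, and -0.22 (adjusted p 0.0613) and -0.39 (adjusted p 0.00791) with the correction. Loop was lower than input in the 4 windows from 69350001 to 69550000, at -0.25 to -0.53, and none of these was called with the correction. With the correction, ratios over Loop in these 33 windows ran from -0.34 to 0.18. The 4 windows higher in HRS over both Loop and input had corrected ratios of 0.56, 0.59, 0.89 and 1.16. As fitted the sizes overlapped, with -0.44 to 0.48 in this section against 0.38 at 66550001.

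The first 350 kb, from 66100001 to 66450000, differed little between the fractions. A 50 kb window held on average 8.10 ± 0.489 CPM in HRS, 8.40 ± 0.316 in Loop, against 8.37 ± 0.194 in input (SD, n = 3 each), and for HRS over input edgeR called 0 of 7 windows (0 at an unadjusted p under 0.05, 0 by DESeq2). For Loop over input it called 1 higher, at 66100001 (0.27, adjusted p 0.0124), and 1 lower, at 66350001 (-0.60, adjusted p 0.0194), and neither with the length correction. Of the 7, 1 was called higher against Loop, from 66350001 to 66400000, with 2.31, 2.59 and 2.77 CPM in HRS, 1.81, 1.97 and 1.12 CPM in Loop, against 2.44, 2.44 and 2.84 CPM in input (log2 ratio 0.70 ± 0.22 SE, adjusted p 0.0181). It was 0.14 with the length correction (adjusted p 0.576), 0.22 on fragments over 200 bp alone (adjusted p 0.426), 0.51 without Loop replicate 3 (adjusted p 0.0562) and 0.41 without both replicate 3 fractions (adjusted p 0.054).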

How the data were processed

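Per the labels' protocols, a biotinylated adaptor with an MmeI site was ligated to StyI ends, which were cut with MmeI to short tags and sequenced. CASAVA 1.8.2 and build mm9 are named in the submitters' processing notes. No aligner is named in the sources used here. Each library's deposited table gives raw counts per StyI fragment, as whole numbers that the authors had not normalized. The repeat tables were not used here, and neither were 21 last intervals that end without a StyI site.

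Fragments were summed by midpoint into windows of 50 kb (10 and 100 kb as alternatives) over the genome. Each comparison was fitted on its 2 groups alone in R 4.3.3 with the quasi-likelihood test of edgeR 4.0.16 (glmQLFit, TMM, filterByExpr with a minimum count of 10) and adjusted by Benjamini-Hochberg over all windows, with calls at an adjusted p of 0.05. Single fragments were fitted likewise, with the newer quasi-likelihood method of glmQLFit because of the size of the table. The standard error of a log2 ratio was its size over the root of the F statistic. CPM divides by the library's total. The length correction sorts fragments into 20 length classes, predicts each window's count in each library from the pooled count and from the part of the class that the library holds, and uses this prediction with a TMM factor as the offset. Shares were tested by exact permutation (SciPy 1.17.1), and DESeq2 1.42.0 was an alternative. The fits were tested on simulated counts. The members, lists and settings were chosen with earlier results of these data known.

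The text names the window at 67.13 Mb and its neighbours, the 6 highest and 6 lowest called windows for HRS over Loop of 1 sign in all 3 numbered pairs, the 3 highest and 3 lowest against input, the longest runs, the 5 highest and 5 lowest called fragments with at least 60 counts, and leading fragments. The 110 and 70 kb stretches, the dense block and the sections of the domain were chosen after their values were seen. Same-numbered HRS and Loop libraries deviated together from their group means (correlations 0.316, 0.155 and 0.374 over 50592 windows). However, HRS replicate 2 correlated more with Loop replicate 1 (0.249). The labels do not say that a number, or the ES tag that goes with it, marks a shared preparation. Whether the numbers pair the libraries is thus not settled. The reported fits are unpaired, and a fit with the replicate number as a block was run as an alternative. Replicate pairs of 1 group differed by more than sampling noise (chi-square per degree of freedom 2.88 or more). Sequences and gene order are from RefSeq, GRCm38.p6. Intervals and limits cover counting error only.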

Additional observations from a re-analysis of the deposited data

How the results depend on the processing

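The 4 windows higher in HRS over both Loop and input kept their direction under every alternative run. Of these, the window at 66550001 passed over Loop under 16 of 17 alternatives, with log2 ratios down to 0.25. The other limits fall on the other calls. For HRS over Loop, 26 windows were called as reported, 10 at an adjusted p of 0.01, 12 with the length correction (9 of them shared in direction), 9 on fragments over 200 bp, 17 of 35 in 100 kb windows and 83 of 268 in 10 kb windows. With the replicate number as a block 35 were called (18 higher, 17 lower), among them all 26 as reported, and 14 with block and length correction. The calls that the block added include lower calls at 66600001 in the dense block (edgeR adjusted p 0.0238) and at 69000001 (0.037). Leaving out each library gave 17 to 29, and leaving out both replicate 3 fractions 33. For HRS over input, 13 were called, 4 at 0.01, 21 on library totals (which move the median of all windows by -0.17 and the domain's from -0.02 to -0.20), 8 in 100 kb windows, 36 in 10 kb windows and 39 with the length correction at 10 kb, an alternative chosen after seeing the data. Leaving out each library gave 6 to 18. For Loop over input, 28 were called, 12 at 0.01, 1 with the length correction, 1 on fragments over 200 bp, 12 in 100 kb windows, 100 in 10 kb windows, 4 of those with the correction, and 17 to 27 with a library left out. Single fragments gave 231 calls, 146 at 0.01, 55 with the correction, 243 with the block, and 162 to 215 with each library left out, also chosen after seeing the data. The share of all counts for HRS over Loop ranged from -0.07 to 0.05, and the domain over its flanks for HRS over input from -0.07 to 0.04, when each library was left out. At named windows 64 of the HRS over Loop values, 21 of the HRS over input values and 41 of the Loop over input values lost the threshold. In the same order, 237, 130 and 163 values kept both direction and call status, and 4, 2 and 5 turned direction. Direction turned for HRS over Loop at 67050001 (-0.02 on fragments over 200 bp) and at 68500001 (0.01 with the length correction, 0.04 on fragments over 200 bp, 0.00 with block and correction). For HRS over input it turned at 67050001 (-0.00 on library totals, -0.01 over 200 bp). For Loop over input it turned at 67100001 (0.05 corrected, 0.03 over 200 bp, 0.03 without D21 and -0.09 to 0.03 over the libraries left out) and at 67150001 (0.08 corrected, 0.00 over 200 bp). The causes of these changes were not tested. Windows with few counted fragments limit the precision in the dense block and from 67300001 to 67950000.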
